A study of Mus musculus with 6 samples.

Results

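The genes described here code for proteins by which neural cells hold on to each other, build synapses and shape their processes. They were 37 genes chosen by name, and each matched 1 row among the 54532 genes of the count table. They comprised 22 adhesion genes (4 of the L1 family, 2 neurexins, 3 neuroligins, 3 contactins, 2 contactin-associated proteins, 4 SynCAMs and 4 nectins) and 15 genes of ankyrins, growth cone and cytoskeletal proteins and reelin. The study isolated Merkel cells, the touch-sensing neuroendocrine cells of the epidermis, from dorsal skin of C57BL/6 mice of both sexes aged 4 weeks. The epidermis was dissociated, and NCAM, a surface protein of Merkel cells, was used to enrich them with antibody-coated beads and then by flow sorting of NCAM+ DAPI- cells, DAPI being a dye that marks dead cells. The comparison was with DAPI- cells of the same kind of suspension sorted without NCAM, called bulk skin below. Each group had 3 libraries of 500 sorted events, made with Smart-seq2, which copies whole transcripts from small inputs. The labels name no transgene and no drug. The labels do not say that the libraries came from separate animals, so p-values measure only the spread between these libraries.

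Library totals ran from 1343190 to 4481830 counts. Levels are given as CPM (counts divided by the scaled library size and set to a common total), in which 1 count was worth 0.216 to 0.773 CPM. The NCAM-enriched libraries stood further apart from each other than the bulk skin libraries did. Pearson's r of log2(CPM + 1) across genes, which are not independent replicates, was 0.607 to 0.734 within the NCAM-enriched group and 0.865 to 0.890 within bulk skin. Among 12 listed Merkel cell markers, edgeR called 6, all with more reads after NCAM selection, and their summed level was 1782, 1908 and 498 CPM there against 153 to 192 in bulk skin. Suprabasal keratinocyte markers were also higher (8 of 12 called, 14465 to 37329 against 1593 to 1779 CPM). The hair follicle sum was 6287 to 28802 against 2205 to 2860 CPM, with Krt17 called higher and Lgr6 lower. Yet over the 7 hair follicle markers tested, the median log2 fold change of NCAM-enriched over bulk skin was -0.50. T and NK cell markers were lower (8 of 10 called, 42.0 to 239 against 4467 to 4867 CPM). So were Langerhans and myeloid cell markers (7 of 10 called, 165 to 822 against 13313 to 20967 CPM). NCAM-enriched library 2 stood out with 34602 CPM of fibroblast markers, against 1617 and 114 in libraries 1 and 3, and library 3 with the lowest Merkel cell sum. The plot of marker sums by library shows these levels. Their part in the results below was not tested. The members' fold changes, calls, fold bounds, summed level and number detected were recomputed without each library.

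**Figure D1:**
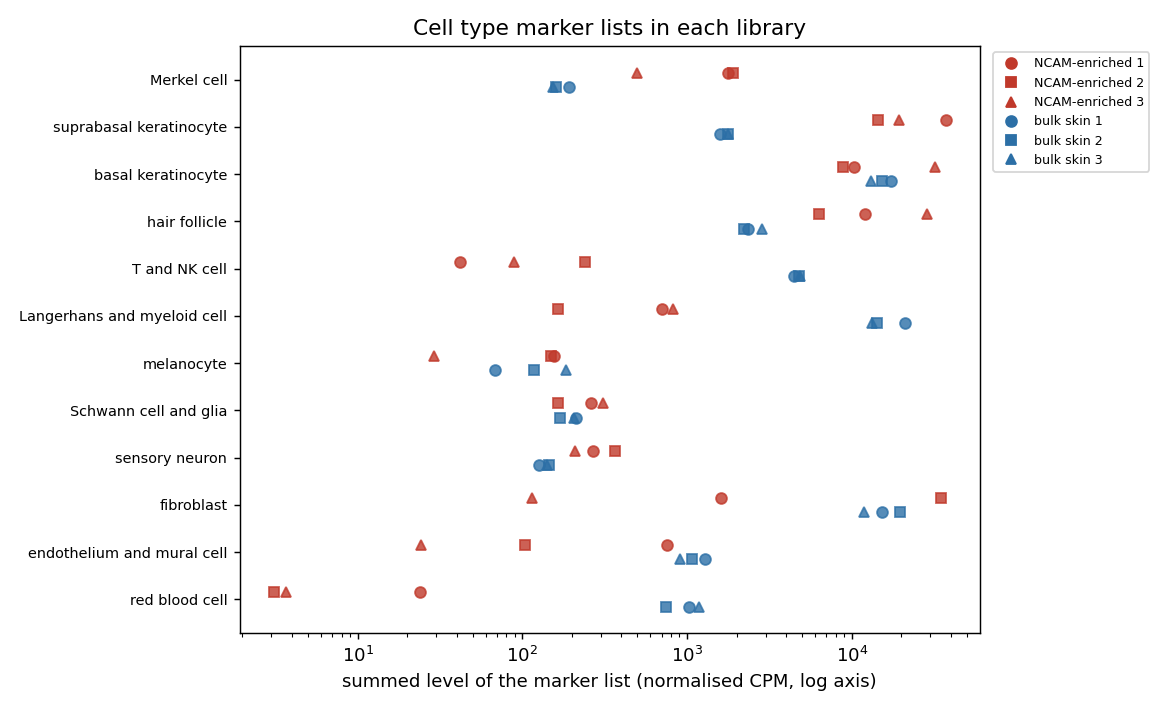
Summed level of 12 cell type marker lists in each library, in normalised CPM on a log axis, with NCAM-enriched libraries in red and bulk skin libraries in blue. Merkel cell, suprabasal keratinocyte and hair follicle sums lie higher in all 3 NCAM-enriched libraries, the immune and red blood cell sums lie lower, and the fibroblast sum of the NCAM-enriched libraries runs from 114 to 34602 CPM.

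As background, neurexins on the presynaptic side bind neuroligins and other partners across the synaptic cleft. Proteins of the L1 family, contactins, SynCAMs and nectins are immunoglobulin-domain adhesion molecules, and ankyrins tie several of them to the spectrin and actin skeleton. Merkel cells form synapse-like contacts with sensory nerve endings in the touch dome, while nectins also build the junctions between ordinary epidermal cells.

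The clearest difference among the members was in Nectin4, an adherens junction nectin, with a mean of 375 CPM in the NCAM-enriched libraries and 12.4 CPM in bulk skin. Of the 37 genes, 24 had enough counts to be tested. Of these, edgeR's quasi-likelihood test, with the Benjamini-Hochberg adjustment over 13157 genes and a threshold of 0.05, called 1 higher in the NCAM-enriched group (Nectin4; 4.17% of those tested) and 0 lower. Over all genes tested, edgeR called 1.04% higher and 1.55% lower. With unadjusted p-values, 11 of the 24 members (45.8%) were under 0.05, as were 18.9% of all genes. DESeq2, the test named in the study's methods, called 7 members higher (29.2%; Chl1, Nrxn3, Nectin1, Nectin4, Ank3, Stmn3 and Mapt) and 2 lower (8.33%; Ank2 and Gap43). Its shares over all genes were 5.06% and 7.10%. By limma-voom 4 members were higher (16.7%; Chl1, Nectin4, Ank3 and Stmn3) and 2 lower (8.33%; Ank2 and Gap43), against 2.67% and 6.45% of all genes. The members' share called higher exceeded the share over all genes by DESeq2 and limma-voom, whereas their share called lower was close to it. By edgeR the members' share is 1 gene. The members were chosen with earlier results of these data known. All shares in this paragraph, and the median fold change, summed levels and numbers detected below, describe such a list and do not test it. In 8 members all NCAM-enriched values lay above all bulk skin values (33.3%) and in 3 members below (12.5%), against 11.1% and 19.3% of all genes tested. A level in these pooled libraries does not tell fewer cells of a type from less RNA per cell.

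The median log2 fold change of the 24 members, NCAM-enriched over bulk skin, was 1.26, against -0.07 over all genes tested, and 17 members lay above 0 (70.8%, against 47.7% of all genes). The medians of the adhesion genes (15 tested, 1.31) and of the ankyrin, cytoskeletal and reelin genes (9 tested, 1.07) lay close together, but single genes did not. Adhesion genes ran from -1.20 to 4.91, with 4 below 0. The others ran from -9.06 to 9.66, with 3 below 0, among them Ank2 and Gap43. Both ends of the latter range are fitted values against a group with no count. The summed level of all 37 genes was 1944, 1834 and 1879 CPM in the NCAM-enriched libraries and 699, 692 and 772 CPM in bulk skin. The group means were 1886 ± 55.1 (SD, n = 3) and 721 ± 44.3, with no overlap (exact two-sided permutation test, p = 0.1, which is the lowest value this design allows). Because the list was chosen with earlier results of these data known, this p-value and the sums below are descriptive only. Leaving out Nectin4 brought the difference of the means from 1165 to 802 CPM. Nectins made up 865, 467 and 974 CPM of the NCAM-enriched sums and 155, 186 and 157 CPM of the bulk skin sums. The sum over the members without the nectins still did not overlap, at 1079, 1367 and 905 against 544, 506 and 615 CPM.

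**Figure D2:**
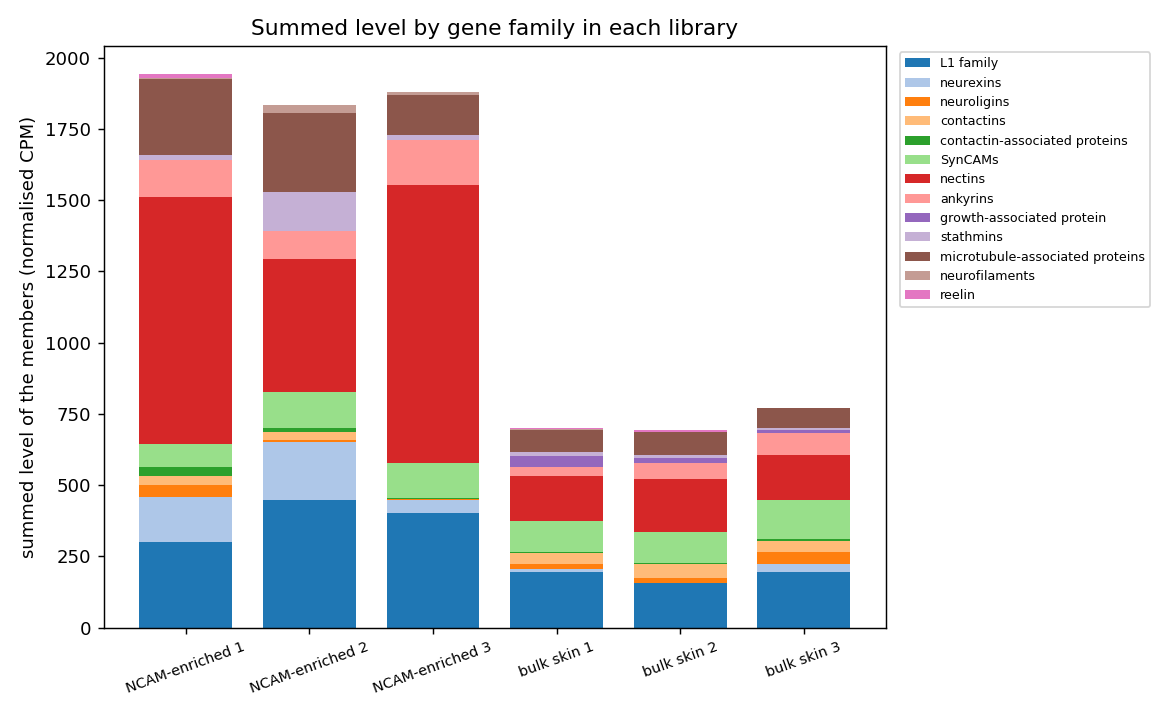
Summed level of the 37 genes in each library, in normalised CPM, stacked by gene family. The NCAM-enriched libraries reach 1834 to 1944 CPM and bulk skin 692 to 772, with the nectins the tallest block of every NCAM-enriched bar, and the NCAM-enriched bars have similar heights but different make-up.

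The numbers of members detected overlapped between the groups. In the NCAM-enriched libraries 26, 23 and 21 members had at least 5 counts, against 24, 23 and 26 in bulk skin (23.3 ± 2.52 and 24.3 ± 1.53; exact permutation p = 0.8). With every library thinned to 1343190 counts the order of the means turned, to 22.3 ± 2.08 and 20.3 ± 1.53 (exact permutation p = 0.3). Cntn3, a contactin, and Dcx, the doublecortin of migrating neurons, had no count in any library.

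**Figure D3:**
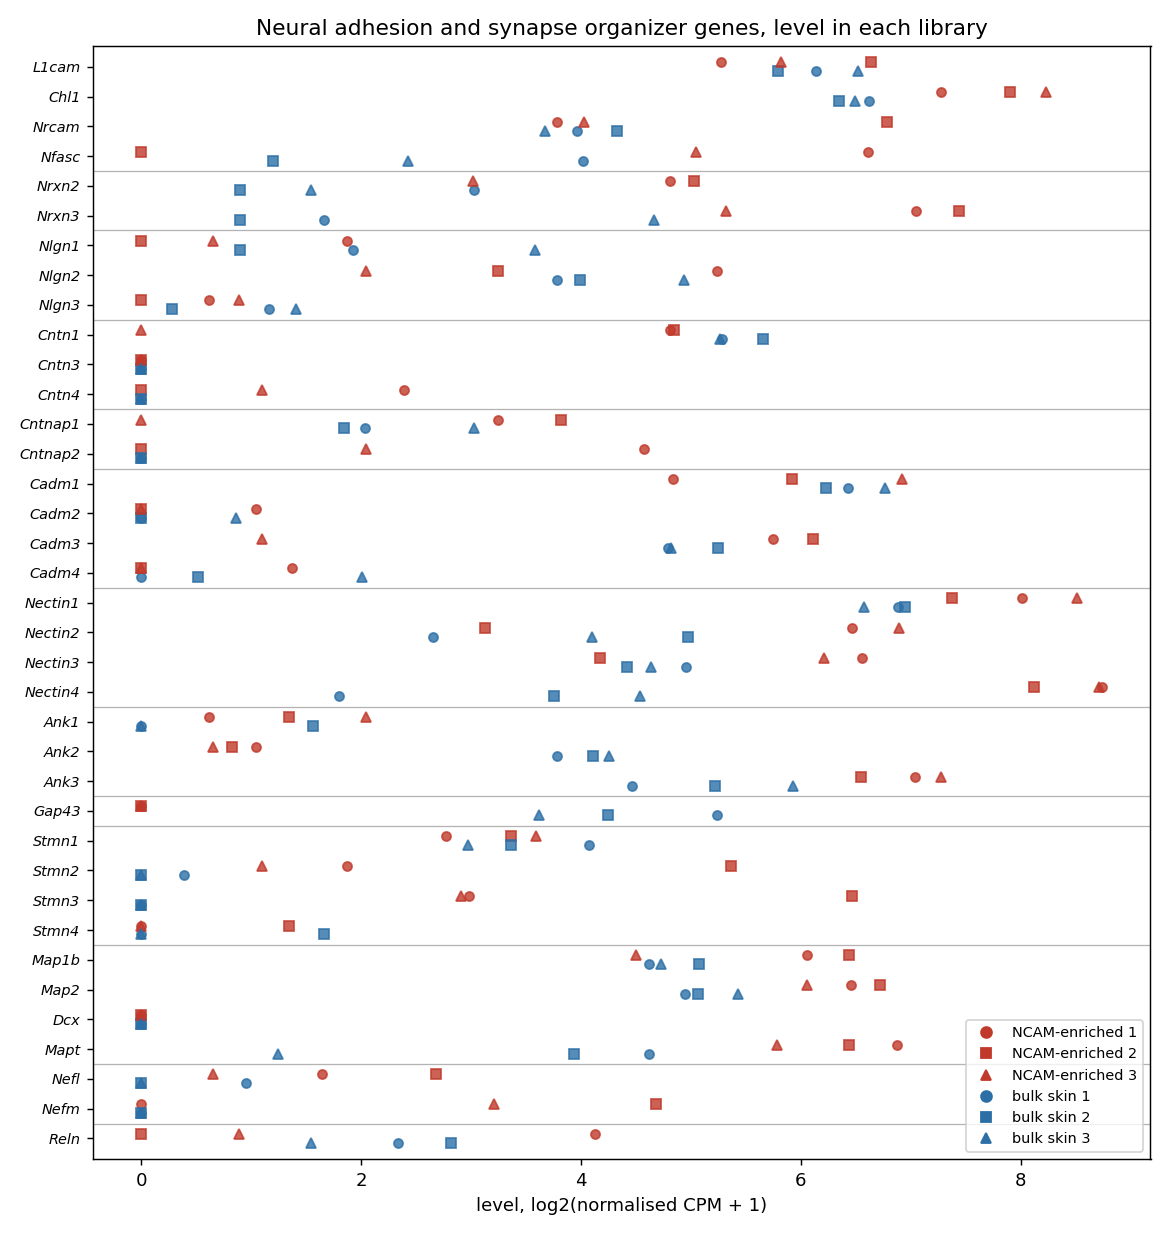
Level of each of the 37 genes in each library, as log2(normalised CPM + 1), with NCAM-enriched libraries in red, bulk skin libraries in blue and lines between gene families. Nectin4, Chl1, Ank3 and Mapt lie higher in every red point than in every blue point, Gap43 and Ank2 lie lower, and Cntn3 and Dcx sit at 0 in every library.

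The 6 members called by both DESeq2 and limma-voom were Chl1, Nectin4, Ank2, Ank3, Gap43 and Stmn3. RefSeq promoter windows (GRCm38.p6, from 250 bases before to 50 after a transcription start) were at hand for Chl1, Nectin4, Ank2 and Stmn3 of these, and are shown so that the starts of these members can be compared. Capitals mark the E-box CAGNTG, searched on both strands (as CAGNTG or its reverse complement CANCTG), the core bound by basic helix-loop-helix factors such as the Merkel cell factor Atoh1. The windows are chr6:103510626-103510925 on the plus strand for Chl1, chr1:171369923-171370222 on the plus strand for Nectin4, chr3:127499066-127499365 on the minus strand for Ank2 (the most upstream of 4 starts) and chr2:181314451-181314750 on the minus strand for Stmn3, each written 5′ to 3′ along the gene.
Nectin4: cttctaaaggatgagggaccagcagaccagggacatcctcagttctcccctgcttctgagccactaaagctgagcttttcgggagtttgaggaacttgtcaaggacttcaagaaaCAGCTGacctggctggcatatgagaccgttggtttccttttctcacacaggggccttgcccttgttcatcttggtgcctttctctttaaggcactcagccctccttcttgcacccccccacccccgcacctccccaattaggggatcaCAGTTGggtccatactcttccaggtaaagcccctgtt
Stmn3: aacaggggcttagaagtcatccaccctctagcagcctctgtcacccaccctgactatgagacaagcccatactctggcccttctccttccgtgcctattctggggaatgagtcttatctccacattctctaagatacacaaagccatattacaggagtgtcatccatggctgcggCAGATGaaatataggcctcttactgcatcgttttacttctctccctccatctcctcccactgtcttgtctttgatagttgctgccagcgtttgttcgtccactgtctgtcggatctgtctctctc
Chl1: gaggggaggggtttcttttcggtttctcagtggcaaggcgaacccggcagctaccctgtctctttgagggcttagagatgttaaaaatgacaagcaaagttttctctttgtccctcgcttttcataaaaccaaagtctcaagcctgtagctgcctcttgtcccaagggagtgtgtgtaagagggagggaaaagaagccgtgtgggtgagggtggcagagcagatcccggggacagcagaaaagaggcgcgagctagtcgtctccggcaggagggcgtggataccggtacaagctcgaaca
Ank2: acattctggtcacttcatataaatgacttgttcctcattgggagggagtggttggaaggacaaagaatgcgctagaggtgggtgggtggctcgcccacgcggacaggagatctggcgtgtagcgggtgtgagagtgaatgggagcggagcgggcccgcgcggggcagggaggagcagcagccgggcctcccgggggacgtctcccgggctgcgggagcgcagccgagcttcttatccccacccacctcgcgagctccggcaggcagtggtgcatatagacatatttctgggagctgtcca
The Nectin4 window held an E-box at -135 and another at 14 from the start, the Stmn3 window 1 at -75, and the Chl1 and Ank2 windows none. E-boxes are common: 51.4% of all 32851 promoter windows held at least 1, as did 20 of the 36 windows of the 23 members in the table. The GC box GGGCGG, searched on both strands, was in none of these 4 windows, in 14 of the 36 and in 35.7% of all windows. No E-box overlapped a GC box here, since the 4 windows held no GC box. GC content was 53.3% for Nectin4, 49.7% for Stmn3, 53.7% for Chl1 and 62.7% for Ank2, against a median of 52.7% over all windows.

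Among the nectins, all 4 fitted values were above 0, and the calls differed by gene and test. Nectin4 (ENSMUSG00000006411, chromosome 1, 171370099 to 171388598, GRCm38 with GENCODE annotation) stood at 428, 278 and 420 CPM in the NCAM-enriched libraries and at 2.48, 12.5 and 22.2 CPM in bulk skin. Every NCAM-enriched library was far above every bulk skin library, and the means were 375 ± 84.1 and 12.4 ± 9.86 CPM (SD, n = 3). The log2 fold change was 4.91 ± 0.74 (SE; edgeR adjusted p = 0.0173, DESeq2 adjusted p = 4.51e-10, limma-voom adjusted p = 0.00358). The call held in 10 of 13 alternatives and was lost on leaving out bulk skin library 1 (edgeR adjusted p = 0.0603), 2 (0.136) or 3 (0.0775), where edgeR called 0 or 1 genes higher in all. These fits had log2 fold changes of 4.39, 4.87 and 5.57. Without NCAM-enriched library 2 the value was 5.07 (edgeR adjusted p = 0.00473), and without library 3 it was 4.76 (0.0218).

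Nectin1, which joins epithelial cells and also lies at synapses, had 257, 165 and 364 CPM in the NCAM-enriched libraries and 117, 122 and 94.6 CPM in bulk skin. All values of the first group were above those of the second, with a log2 fold change of 1.23 ± 0.39 (edgeR adjusted p = 0.127, DESeq2 adjusted p = 0.0470). Nectin2 was at 87.1, 7.73 and 118 against 5.28, 30.5 and 16.2 CPM, so that NCAM-enriched library 2 fell inside the bulk skin range (log2 fold change 2.03 ± 0.98, edgeR adjusted p = 0.307). Nectin3, the usual partner of Nectin1 across a junction, was at 93.0, 17.0 and 73.2 against 30.1, 20.3 and 23.9 CPM, again with library 2 within or below bulk skin (1.31 ± 0.68, edgeR adjusted p = 0.346). Library 2 was the lowest NCAM-enriched library for all 4 nectins, and it also had the lowest suprabasal keratinocyte sum (14465 CPM) and the highest fibroblast sum. Without it the log2 fold changes of Nectin1, Nectin2 and Nectin3 were 1.46, 2.54 and 1.73, and edgeR called Nectin1 (adjusted p = 0.0333) and Nectin3 (0.0465).

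The L1 family bind ankyrins inside the cell, and Nrcam and Nfasc gather at nodes of Ranvier and axon initial segments. Chl1, the close homolog of L1 (ENSMUSG00000030077, chromosome 6, 103510586 to 103750211), was at 154, 239 and 299 CPM in the NCAM-enriched libraries and at 97.5, 80.6 and 88.8 CPM in bulk skin. The groups did not overlap, and the log2 fold change was 1.37 ± 0.38 (edgeR adjusted p = 0.0841, DESeq2 adjusted p = 0.0160, limma-voom adjusted p = 0.0401). Leaving out a library gave 1.07 to 1.58. L1cam, the founding member, showed no such difference: it was at 37.7, 98.9 and 55.3 against 69.2, 54.5 and 91.0 CPM (-0.17 ± 0.50, edgeR adjusted p = 0.904), and the groups overlapped throughout. Nrcam was at 12.8, 109 and 15.3 against 14.6, 19.0 and 11.8 CPM, a difference carried by library 2 (1.58 ± 0.93 with it, -0.12 without it). Nfasc was at 96.7, 0 and 32.1 against 15.2, 1.30 and 4.39 CPM, with no count in library 2 (2.63 ± 1.55, edgeR adjusted p = 0.416, and 1.24 without library 1).

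Both neurexins tested had fitted values above 0 with a wide spread. Nrxn3 (ENSMUSG00000066392, chromosome 12, 88722876 to 90334935) was at 131, 172 and 38.9 CPM in the NCAM-enriched libraries and at 2.17, 0.865 and 24.4 CPM in bulk skin. The groups did not overlap, although the lowest NCAM-enriched and the highest bulk skin library lay close together. Its log2 fold change was 3.64 ± 1.17 (edgeR adjusted p = 0.130, DESeq2 adjusted p = 0.0110, limma-voom adjusted p = 0.0581). On leaving out a library it was 3.01 to 6.14, highest without bulk skin library 3, with edgeR adjusted p from 0.0701 to 0.349. Nrxn3 was called in 2 of 13 alternatives. These were DESeq2 and edgeR with every gene that had a count kept in the fit (adjusted p = 7.16e-05). The latter fit called 769 genes higher in all, against 137 in the main fit. Nrxn2 was at 27.1, 31.7 and 7.09 against 7.14, 0.865 and 1.92 CPM (2.72 ± 1.18, edgeR adjusted p = 0.257), and the groups just overlapped.

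Neuroligins, the postsynaptic partners, were low in both groups. Nlgn2, known from inhibitory synapses, averaged 16.1 ± 18.0 CPM in the NCAM-enriched libraries and 19.1 ± 9.18 CPM in bulk skin (log2 fold change -0.25 ± 1.03, edgeR adjusted p = 0.932). Nlgn1, of excitatory synapses, had 5, 0 and 2 counts against 9, 4 and 40, and Nlgn3 had 1, 0 and 3 against 4, 1 and 6. Neither had enough counts for the test. Of the Nlgn3 exonic bases 41.2% are shared with Gm21986, and of those of Nlgn1 9.16% with A830092H15Rik, so reads there cannot be given to 1 gene without strand.

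Contactins are anchored in the membrane by lipid, and Cntn1 pairs with Cntnap1 where myelin meets the axon. Cntn1 was at 27.1, 27.8 and 0 CPM in the NCAM-enriched libraries and at 37.9, 49.3 and 37.6 CPM in bulk skin. All NCAM-enriched values were lower, but no tool called it (log2 fold change -1.20 ± 1.27, edgeR adjusted p = 0.679, DESeq2 adjusted p = 0.661, limma-voom adjusted p = 0.164). Cntnap1 averaged 7.21 against 4.28 CPM (0.73 ± 1.52, edgeR adjusted p = 0.857). Cntnap2, which clusters potassium channels along axons, had 43, 0 and 11 counts against none in bulk skin, which put it at least 30.9-fold higher when bulk skin is set to a floor of 3 counts in all, and at least 8.75-fold without NCAM-enriched library 1. Cntn4 had 8, 0 and 4 counts against none, at least 6.86-fold higher, and at least 3.18-fold without library 1. Neither passed the filter for testing, and NCAM-enriched library 2 had no count of either.

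The SynCAMs, which drive synapse formation and are shared with epithelia, did not separate the groups. Cadm1 was at 27.6, 59.5 and 120 CPM in the NCAM-enriched libraries and at 85.1, 74.1 and 108 CPM in bulk skin (log2 fold change -0.36 ± 0.55, edgeR adjusted p = 0.794). Cadm3 was at 52.6, 68.0 and 1.14 against 26.7, 36.97 and 27.1 CPM (0.41 ± 1.06, edgeR adjusted p = 0.886), with library 3 far below the rest. Cadm2 had 2, 0 and 0 counts against 0, 0 and 3. Cadm4 had 3, 0 and 0 counts against 0, 2 and 11, a ratio of 2.53 lower with a 95% counting interval of 0.694 to 13.8, which includes no difference.

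The ankyrins, adaptors beneath these adhesion proteins, were called in opposite directions by DESeq2 and limma-voom. Ank3, the ankyrin-G of axon initial segments and of epithelial lateral membranes (ENSMUSG00000069601, chromosome 10, 69398773 to 70027438), was at 130, 92.7 and 154 CPM in the NCAM-enriched libraries and at 21.1, 36.3 and 60.0 CPM in bulk skin. The groups did not overlap (log2 fold change 1.68 ± 0.50, edgeR adjusted p = 0.1003, DESeq2 adjusted p = 0.0245, limma-voom adjusted p = 0.0348), and edgeR called it without NCAM-enriched library 2 (1.85, adjusted p = 0.0484). Ank2, ankyrin-B (ENSMUSG00000032826, chromosome 3, 126921612 to 127499350), was at 1.06, 0.773 and 0.568 CPM against 12.7, 16.2 and 18.1 CPM. These were 5 counts in all NCAM-enriched libraries and 182 in bulk skin, and every bulk skin library was well above every NCAM-enriched one. The log2 fold change was -4.25 ± 1.12 (edgeR adjusted p = 0.0780, DESeq2 adjusted p = 0.00216, limma-voom adjusted p = 0.0335), and -4.53 to -4.07 on leaving out a library. Ank1, the ankyrin of red cells, had 1, 2 and 11 counts against 0, 9 and 0.

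Gap43, a membrane protein of growth cones (ENSMUSG00000047261, chromosome 16, 42248442 to 42340651), had no count in any NCAM-enriched library and 36.6, 17.9 and 11.2 CPM in bulk skin, or 242 counts in all. It was at least 47.0-fold lower against the floor of 3 counts, and at least 22.3-fold lower without NCAM-enriched library 3. DESeq2 (adjusted p = 4.26e-05) and limma-voom (0.00674) called it, and edgeR did not (0.0521), with an edgeR adjusted p of 0.0211 without NCAM-enriched library 2 and 0.285 without bulk skin library 1. Beside the lower Gap43 and Ank2, the T and NK cell and myeloid sums were lower in each NCAM-enriched library. The red blood cell sum was 3.09 to 23.9 against 747 to 1176 CPM. The endothelial sum was 24.1 to 753 against 905 to 1282 CPM, with 0 of 5 tested called by edgeR and 1 called lower by DESeq2. The fibroblast sum was not lower in every library. It was 1617, 34602 and 114 CPM in NCAM-enriched libraries 1, 2 and 3, against 11794 to 19676 CPM in bulk skin. Schwann cell and glial markers summed to 164 to 308 against 170 to 211 CPM with 0 of 8 tested called by edgeR (2 had an unadjusted p under 0.05, and DESeq2 called 1), although the glial marker S100b was at 0 counts in the NCAM-enriched libraries. The part of these cells in the result was not tested.

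Stathmins bind tubulin, and Stmn2 and Stmn3 are largely neuronal. Stmn3 (ENSMUSG00000027581, chromosome 2, 181306459 to 181314500) was at 6.91, 87.3 and 6.53 CPM in the NCAM-enriched libraries, or 13, 113 and 23 counts, and had no count in bulk skin. It was at least 85.2-fold higher against the floor, and at least 25.5-fold higher without library 2, which held most of its reads. DESeq2 (adjusted p = 8.84e-06) and limma-voom (0.0131) called it, and edgeR did not (0.0642), but did without NCAM-enriched library 3 (0.0385) and with every gene that had a count kept in the fit (3.20e-05). Stmn2 showed the same order of libraries, with 5, 52 and 4 counts against 1, 0 and 0, a ratio of 105 (95% counting interval 18.1 to 4200), and was too low for the test. Stmn1, found in dividing cells of many kinds, averaged 8.73 ± 2.65 against 10.7 ± 4.64 CPM (log2 fold change -0.28 ± 0.96, edgeR adjusted p = 0.916). Stmn4 had 0, 2 and 0 counts against 0, 10 and 0, a ratio of 2.91 lower (0.621 to 27.4).

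The microtubule-associated proteins stabilise axons and dendrites. Mapt, the gene of tau (ENSMUSG00000018411, chromosome 11, 104231390 to 104332090), was at 116, 85.8 and 53.9 CPM in the NCAM-enriched libraries and at 23.6, 14.3 and 1.37 CPM in bulk skin. The groups did not overlap, with a log2 fold change of 2.70 ± 0.89 (edgeR adjusted p = 0.136, DESeq2 adjusted p = 0.0249, limma-voom adjusted p = 0.0552). Map2, the dendritic protein, was at 86.6, 104 and 65.5 against 29.8, 32.4 and 41.9 CPM, also without overlap, and missed the threshold (1.30 ± 0.45, edgeR adjusted p = 0.153, DESeq2 adjusted p = 0.0503). Map1b, of growing axons, was at 65.4, 85.8 and 21.6 against 23.6, 32.6 and 25.5 CPM (1.07 ± 0.63, edgeR adjusted p = 0.412), with library 3 below all of bulk skin.

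Neurofilament genes were sparse. Nefm had 0, 32 and 29 counts against none in bulk skin, at least 34.9-fold higher and at least 20.6-fold without library 2, and Nefl had 4, 7 and 2 against 3, 0 and 0, a ratio of 7.43 (95% counting interval 2.04 to 40.7). Each shares exonic bases with the other on the opposite strand (32.8% of Nefl, 19.2% of Nefm). Reln, the secreted guidance protein reelin, averaged 5.77 against 4.00 CPM (log2 fold change 0.52 ± 1.56, edgeR adjusted p = 0.904), with 16.5 CPM in NCAM-enriched library 1 and 0 and 0.851 in the others.

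**Figure D4:**
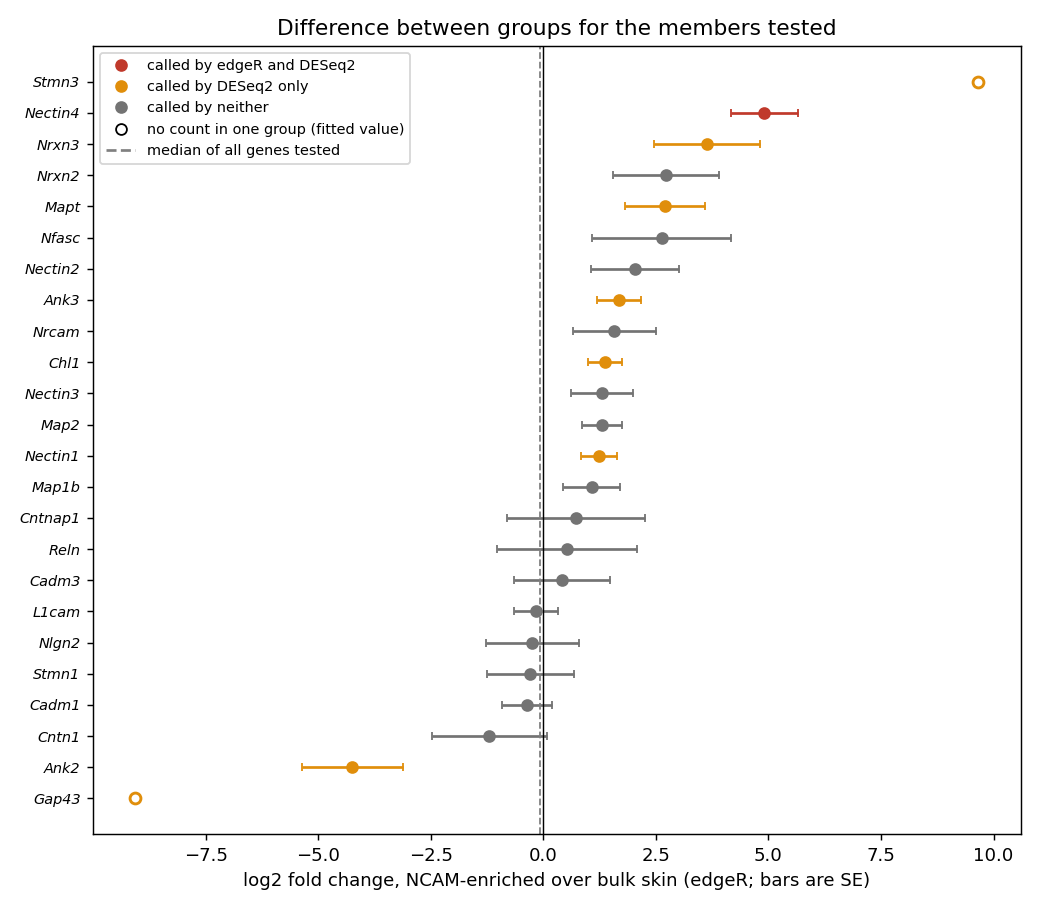
Log2 fold change of the 24 members tested, NCAM-enriched over bulk skin, from edgeR with bars of 1 SE, and the median of all genes tested as a dashed line. Only Nectin4 (4.91) was called by edgeR, 8 more were called by DESeq2, and the open points (Stmn3 and Gap43) are fitted values against a group with no count, which are no measure of size.

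Per length, the order of the members differed between the groups. In CPM per kb of exon, Nectin4 led in the NCAM-enriched libraries at 100 ± 22.5, followed by Nectin1 at 46.3 ± 17.6, Stmn3 at 29.6 ± 41.0, Nectin2 at 20.3 ± 16.3 and Chl1 at 18.7 ± 5.90. The spread of Nectin1, Stmn3, Nectin2 and Chl1 overlapped between neighbours in this order. In bulk skin Nectin1 led at 19.7 ± 2.62 CPM per kb, with Gap43 at 14.4 ± 8.64, L1cam at 9.74 ± 2.50, Cadm1 at 8.52 ± 1.64 and Chl1 at 7.24 ± 0.686, and Nectin4 had rank 10 at 3.31 ± 2.63. L1cam held nearly the same level per length in the NCAM-enriched group (8.71 ± 4.29).

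The members varied more among the NCAM-enriched libraries than within bulk skin. The median coefficient of variation was 0.777 over the 28 members with at least 10 counts in the NCAM-enriched group and 0.501 over the 27 with as many in bulk skin. The NCAM-enriched libraries differed in which members they held. Library 2 had the highest value of 13 of the 28 members, among them Nrcam, Nrxn2, Nrxn3, Stmn2, Stmn3, Map1b, Map2, Nefl and Nefm, and the lowest of 9, among them all 4 nectins, Ank3, Nfasc and Cntnap2. Library 3 had the highest value of 7, among them Chl1, Nectin1, Nectin2 and Ank3, and the lowest of 12, among them both neurexins, Cntn1, Stmn3, Map1b, Map2 and Mapt. Beside this, the Merkel cell sum was lowest in library 3 and highest in library 2, the sensory neuron sum was 269, 365 and 210 CPM in libraries 1, 2 and 3 against 125 to 145 in bulk skin, and the basal keratinocyte sum was highest in library 3 (32110 CPM). These orders rest on 1 library each, and the part of other cells in them was not tested.

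**Figure D5:**
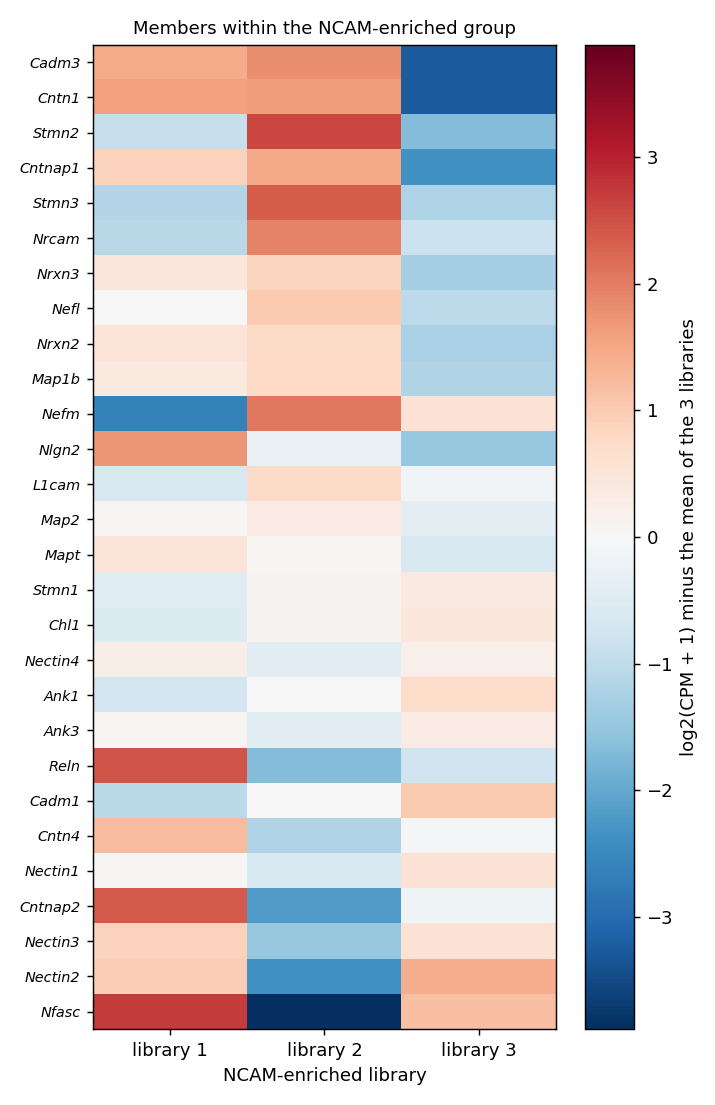
Members with at least 10 counts in the NCAM-enriched group, shown as log2(CPM + 1) in each NCAM-enriched library minus the mean of the 3, red above and blue below. The rows run by the difference between libraries 3 and 2, from genes low in library 3 at the top to genes low in library 2 at the bottom, with Nfasc and all 4 nectins in the lower part.

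Genes related to the members were taken from 5 fixed lists of 99 genes, of which 61 were tested. Over these 61 genes edgeR called 1 higher and 0 lower, and DESeq2 called 6 higher and 1 lower. Over all genes tested the shares higher and lower were 1.04% and 1.55% by edgeR and 5.06% and 7.10% by DESeq2. The median log2 fold change of the related genes was 0.58, below the 1.26 of the members. The edgeR call was Tubb3, the neuronal beta-tubulin, at 74.3 ± 57.2 against 0.380 ± 0.442 CPM (log2 fold change 7.36, edgeR adjusted p = 0.0253). It was the only one called of 13 tested among other neuronal cytoskeleton genes. Tubb3 is also 1 of the 12 Merkel cell markers counted above. Marcks, an actin-regulating membrane protein and the most abundant of that list not called, was at 200 against 327 CPM (-0.71, edgeR adjusted p = 0.273). Of 16 tested cytoplasmic partners of the adhesion proteins (median 0.66), edgeR called 0 (5 had an unadjusted p under 0.05) and DESeq2 called 2 higher, among them the scaffold Dlg3, at 59.2 ± 23.5 against 17.2 ± 2.598 CPM (1.78, edgeR adjusted p = 0.137, DESeq2 adjusted p = 0.0211). Sptbn1, the widely expressed spectrin, stood at 631 against 376 CPM (edgeR adjusted p = 0.343).

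Of 23 tested genes among other synapse organizers (median 0.69), edgeR called 0 (7 had an unadjusted p under 0.05) and DESeq2 called 3 higher, namely Flrt1, Clstn3 and Nptx1. Clstn3, a calsyntenin, was at 7.97, 82.7 and 7.38 CPM in the NCAM-enriched libraries and Nptx1, a neuronal pentraxin, at 28.7, 334 and 0.851, so both were far higher in library 2 than in the others. Flrt1, a latrophilin ligand, was at 36.5 ± 21.6 against 7.47 ± 0.705 CPM (log2 fold change 2.28, edgeR adjusted p = 0.158, DESeq2 adjusted p = 0.0183). Tenm4, a teneurin, was at 169 ± 31.8 against 59.7 ± 30.6 CPM (1.498, edgeR adjusted p = 0.127, DESeq2 adjusted p = 0.0502). The most abundant of the list, the receptor phosphatase Ptprf, was at 1083 ± 406 against 541 ± 96.3 CPM (edgeR adjusted p = 0.235). Among other genes of the members' own families, 6 of 13 were tested. Pvr, a nectin-like adhesion gene, was lower by DESeq2, at 5.23 ± 2.75 against 40.2 ± 7.25 CPM (-2.93, edgeR adjusted p = 0.0848, DESeq2 adjusted p = 0.00154). Ncam1, which codes for NCAM, was at 65.4 ± 51.6 against 34.4 ± 14.1 CPM (edgeR adjusted p = 0.576). The beads and the sorting antibody were anti-PSA-NCAM, and this RNA level is not a measure of what they bound. In the reelin pathway the receptor Vldlr was at 24.4 against 29.4 CPM, the receptor Lrp8 at 6.08 against 1.74 CPM and the adaptor Dab1 at 27.9 against 8.54 CPM, and edgeR called none of the 3 (adjusted p = 0.903, 0.546 and 0.358), nor did DESeq2.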

How the data were processed

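The deposited file holds raw read counts for 54532 genes in 6 Smart-seq2 libraries. By their methods, the authors trimmed reads with bbduk, filtered abundant sequences with bbmap, mapped to GRCm38 with STAR and counted per gene with featureCounts. Which annotation release and strand setting were used is not given in the sources used here. The deposited counts were not normalised. Smart-seq2 does not mark strand, so reads of overlapping genes cannot be told apart, which touches more than 5% of the exonic bases of 6 members (Nrxn2, Nlgn1, Nlgn3, Ank1, Nefl and Nefm).

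Groups came from the labels. The groups were compared with edgeR 4.0.16 under R 4.3.3 (filterByExpr with a minimum count of 10, TMM factors, quasi-likelihood F-test, group as the only term), and p-values were adjusted by Benjamini-Hochberg across 13157 genes at a threshold of 0.05. The common biological coefficient of variation was 0.744. The SE is the size of the log2 fold change over the root of F. CPM are counts over the TMM-adjusted library size. Fold bounds use a floor of 3 counts over a group, and ratios have 95% exact (Clopper-Pearson) intervals on pooled counts. PCR copies were not collapsed by molecular identifiers, so bounds and intervals cover counting error only. Values per library were compared by their means in an exact permutation test (two-sided). Alternatives were DESeq2 1.42.0 (the study's stated test), limma-voom (limma 3.58.1), other factors, filters and dispersions, the replicate number as a block, and leaving out each library. The scripts were tested on simulated data. Positions and exonic lengths came from GENCODE release M21, in which 54495 gene IDs were found and 37 were not. Figures used matplotlib 3.10.9 in Python 3.11.15.

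Every member is named, with values in every library for the 20 that were called, reached 20 CPM on average in a group, or had at least 100 counts in one group and under 10 in the other. From each related list the 2 genes with the smallest p and the most abundant gene not called are named, except 1 gene that is not reported here. Clstn3 and Nptx1 were named after their values were seen. The members and lists were chosen with earlier results of these data known.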

Additional observations from a re-analysis of the deposited data

How the results depend on the processing

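The members' median log2 fold change stayed above 0 in every fit, from 0.86 (limma-voom) to 1.27, and above the median of all genes tested by 1.08 to 1.34; that all-gene median was -0.07, -0.37 by limma-voom and -0.36 with the replicate block. The number of members called did depend on the test. Members higher numbered 1 by edgeR, 7 by DESeq2, 4 by limma-voom, 5 with every gene that had a count, and 0 to 4 on leaving out a library; members lower numbered 0, 2, 2, 1 and 0 to 1. Related genes higher numbered 1, 6, 2, 8 and 0 to 4, and lower 0, 1 by DESeq2 and by limma-voom, and 0 to 2. Over all genes the counts higher were 137 by edgeR, 661, 351, 769 and 0 to 1099, and lower 204, 928, 849, 741 and 13 to 733. edgeR called no member without bulk skin library 1, 2 or 3, where 12, 10 and 10 had an unadjusted p under 0.05, as had 2115, 2237 and 2178 genes in all; it called 4 members higher without NCAM-enriched library 2 and 2 without library 3. In the fit that has the replicate block edgeR called 50 genes higher and 92 lower, of which 132 were among the 341 called without it, and the same member, Nectin4. The numbers are not known to mark a shared animal or day, and deviations from the group means of same-numbered libraries correlated at 0.0226, 0.000250 and -0.00436. The difference in summed CPM was 1165, 1048 with no TMM factor and 802 without Nectin4, and that in members detected was -1, 2 after thinning and 1.67 at a minimum of 1 count. Of the values of single members, 271 kept direction and call, 23 gained and 3 lost the call (Nectin4 without each bulk skin library), and 15 changed sign, none of them called: on leaving out a library L1cam ran from -0.63 to 0.088, Nrcam from -0.12 to 1.99, Nlgn2 from -1.76 to 0.20, Cntnap1 from -0.056 to 1.26, Cadm1 from -1.11 to 0.016, Cadm3 from -0.21 to 0.92, Stmn1 from -0.57 to 0.063 and Reln from -2.89 to 1.07, and Cntnap1 was -0.82, Cadm3 -1.86 and Reln -1.03 by limma-voom and Cadm3 -0.41 and Reln -1.02 with the block. Why these changed was not tested. The 13 members not tested had at most 62 counts over all libraries. Without bulk skin library 2, the largest of its group, the fold bounds of Cntn4, Cntnap2, Stmn3 and Nefm were 4.10, 18.5, 50.9 and 20.8.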
